A study of Homo sapiens with 16 samples.

Results

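The comparison set a peptide that binds DPY30 (Y518R) against a peptide that does not (3R) in 3 human leukemia cell lines of the myeloid or erythroid lineage, MOLM13, THP1 and K562. Members were all libraries that the labels give to these lines, which were 6 of the 16 libraries of the series, 1 library per line and peptide. MOLM13 and THP1 carry the fusion MLL-AF9 per the labels, and K562 carries BCR-ABL. All 6 cultures were in Advanced RPMI with 2.5% fetal bovine serum, and poly(A) RNA was sequenced. Neither the peptide's dose nor its duration is stated in the sources used here. The 5 other lines, RS4-11, KOPN8, RAJI, JURKAT and P493-6, are of lymphoid origin and are used here only to test where the 3 lines differ from them.

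DPY30 is a small subunit shared by the SET1/MLL complexes, in which it sits on ASH2L and promotes methylation of lysine 4 of histone H3, a mark of active promoters. MLL-AF9 joins the start of the methyltransferase gene MLL to AF9, loses the methyltransferase domain, and keeps genes such as HOXA9 and MEIS1 active in acute myeloid leukemia. BCR-ABL is an active tyrosine kinase, and K562 cells have erythroid and megakaryocytic traits. The series concerns peptides against DPY30, and the question addressed here is which genes differ between the peptides in each line, and whether the lines that share a fusion differ in the same genes.

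The 6 libraries held 22935898 to 33312593 gene counts. Between 17.7% and 25.2% of a library's reads fell in no gene. Levels are CPM, counts scaled by TMM to a common library size. Where 2 levels of a line are given, the 3R library comes first and the Y518R library second, and a log2 ratio is Y518R over 3R within a line. A count of 0 allows up to 3 counts, or 0.0901 to 0.131 CPM. These floors and all counting intervals cover counting error only, since no molecular identifiers separate molecules from their copies. The erythroid factor GATA1 was at 266 and 316 CPM in K562, and at 0 to 0.292 CPM in the 4 libraries of the other lines. LYZ, the lysozyme of monocytes and granulocytes, was at 497 to 723 CPM in MOLM13 and THP1, and at 38.3 and 33.8 CPM in K562. HOXA9 was at 18.9 and 26.7 CPM in MOLM13, 12.4 and 9.60 CPM in THP1, and 0 in both K562 libraries. No marker of B or T cells on lists of 10 each reached 10 CPM in any of the 6 libraries. In such bulk samples fewer cells of a type and less RNA per cell cannot be told apart.

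No gene was called over the 3 lines. With the line as a block, edgeR's quasi-likelihood test made 0 calls among 15151 genes at an adjusted p under 0.05 (0%), and the lowest adjusted p was 0.336. At an unadjusted p under 0.05 stood 262 genes higher with Y518R (1.73%) and 173 lower (1.14%). DESeq2 called 4 genes higher (GPNMB, ADAMTS15, CD44 and COL6A1) and limma-voom none. Calls depended on which lines were fitted: 20 genes higher and 2 lower without the MOLM13 pair, 5 and 1 without the THP1 pair, and 3 and 1 without the K562 pair. With all 16 libraries sharing an estimate of the spread, 13 genes were called higher and 2 lower in these lines.

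The 3 pairs differed in how far the peptides stood apart. Of genes at 10 CPM or more in either library of a line, THP1 had 494 of 9681 genes past 1.5-fold higher with Y518R (5.1%) and 343 lower (3.54%). MOLM13 had 368 of 9598 higher (3.83%) and 325 lower (3.39%). K562 had 45 of 8967 higher (0.502%) and 10 lower (0.112%). Past 2-fold stood 201 genes higher and 78 lower in THP1, 40 and 22 in MOLM13, and 3 and 0 in K562. Some of these genes reached 10 CPM in only 1 library of a line, the one where they were high, so the filter fixed their direction. Among the 9174 genes at 10 CPM or more in both THP1 libraries, 329 were past 1.5-fold higher and 262 lower. By the same rule the counts were 287 and 246 of 9176 in MOLM13, and 27 and 5 of 8756 in K562. With 1 library per peptide in a line, these counts have no replicate check and no test.

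**Figure D1:**
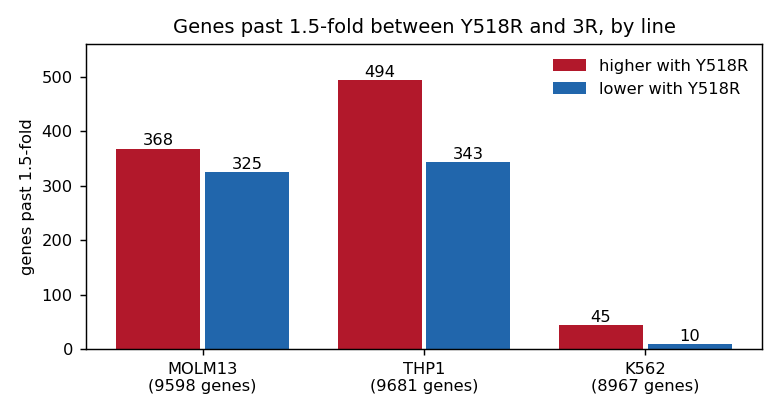
Number of genes past 1.5-fold between the Y518R and 3R libraries of each line (y axis, genes; red higher and blue lower with Y518R), among genes at 10 CPM or more. The K562 bars stand at 45 and 10 genes, against 368 and 325 in MOLM13 and 494 and 343 in THP1. A gene is included if either library of the line reached 10 CPM, which fixed the direction of some genes.

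The log2 ratios of the lines hardly followed each other. Across 15151 genes, Pearson's r was 0.0211 between MOLM13 and THP1, 0.0369 between MOLM13 and K562, and -0.0149 between THP1 and K562. Genes are not independent replicates, and these values describe 3 pairs of libraries. Above 0 in all 3 lines stood 1722 genes (11.4%), and below 0 in all 3 stood 1548 (10.2%). In the fit over the lines, 7809 genes had a log2 change above 0 (51.5%).

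Among the genes higher with Y518R in all 3 lines and at a mean of 10 CPM or more, GPNMB, a glycoprotein of lysosomes and macrophages, had the lowest p. GPNMB was at 3.67 and 6.87 CPM in MOLM13, 73.3 and 234 in THP1, and 0.123 and 0.412 in K562. Its fitted log2 change was 1.38 ± 0.21 (SE, n = 3 lines; edgeR adjusted p = 0.336). COL6A1, a collagen chain, was at 0.0418 and 0.282 CPM in MOLM13, 51.2 and 158 in THP1, and 0.123 and 0.158 in K562. Only the THP1 libraries held COL6A1 far above the floor of 3 counts. CD44, a receptor for hyaluronan, was at 154 and 220.5 CPM in MOLM13, 190.3 and 318 in THP1, and 1.72 and 3.80 in K562. The 7 that followed by p were PITPNC1, MCOLN2, IFI6, S100A10, ITGB7, CRIP1 and TYMP, with fitted log2 changes of 0.61 to 0.96. CRIP1 was at 66.6 and 149 CPM in MOLM13, 88.1 and 112 in THP1, and 0.123 and 0.127 in K562. It was called without the THP1 pair (edgeR adjusted p = 0.00283), a call that rests mainly on the MOLM13 pair. GPNMB and CRIP1 were under 1 CPM in K562, so their sign there rests on few reads.

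Among genes lower in all 3 lines, MNDA, a nuclear protein of myeloid cells, had the lowest p. MNDA was at 7.35 and 3.95 CPM in MOLM13, 156 and 66.5 in THP1, and 0.0411 and 0 in K562. Its fitted log2 change was -1.09 ± 0.20 (SE, n = 3 lines; edgeR adjusted p = 0.626). NUPR1, a stress-response factor, was at 22.7 and 14.7 CPM in MOLM13, 29.0 and 11.96 in THP1, and 1.27 and 0.571 in K562. TSC22D3, a leucine zipper protein induced by glucocorticoids, was at 193 and 129 CPM in MOLM13, 119.9 and 84.0 in THP1, and 1.85 and 1.17 in K562. ME1, the cytosolic malic enzyme that yields NADPH, was the member of these 10 with the most RNA in K562, at 36.6 and 22.5 CPM in MOLM13, 111 and 60.0 in THP1, and 29.7 and 25.7 in K562. PELI2, RGS18, SNTB1, INSR, LOC283663 and ARHGAP9 completed the 10, with fitted log2 changes of -0.89 to -0.45. All 10 genes other than ME1 were under 5 CPM in K562, so their sign there rests on few reads.

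The lines with the same fusion differed in opposite directions at a small set of genes. Of 8774 genes at 10 CPM or more in both lines, 10 were past 1.5-fold higher in MOLM13 and past 1.5-fold lower in THP1 (0.114%), and 22 were lower in MOLM13 and higher in THP1 (0.251%). By the same rule 12 genes were higher in both (0.137%) and 17 lower in both (0.194%). Any difference of sign, whatever its size, was seen at 56.5% of the 8774 genes. Scaling by total counts in place of TMM moved the median log2 ratio by -0.08 in MOLM13 and 0.04 in THP1, and the opposed counts became 3 and 36. WNT7B, BEX1 and MYC were the 3 that remained, and all 22 of the other orientation remained. All 32 opposed genes kept a 95% counting interval of the ratio that left out 1 in both lines. Asking for this removed no gene from any of the 4 classes, so it adds nothing to the fold rule. The interval covers counting error only, and the difference between lines has no replicate check. In 2 of the 10 and 6 of the 22, and in 7 of the 12 and 4 of the 17 shared genes, at least 1 of the lines reached 10 CPM in only 1 of its libraries, the one where the gene was high, so the direction there was fixed by the filter. The opposed ones were WNT7B and FAM203A, and PAPSS2, CTSK, UST, RGS2, SNTB2 and CRYZ. Of the shared genes they were LSP1, SLC43A2, ARRDC3, C7orf41, FGL2, GNG4 and CMPK2, higher in both lines. INHBE, MPO, PPM1E and ISL2 were those lower in both.

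**Figure D2:**
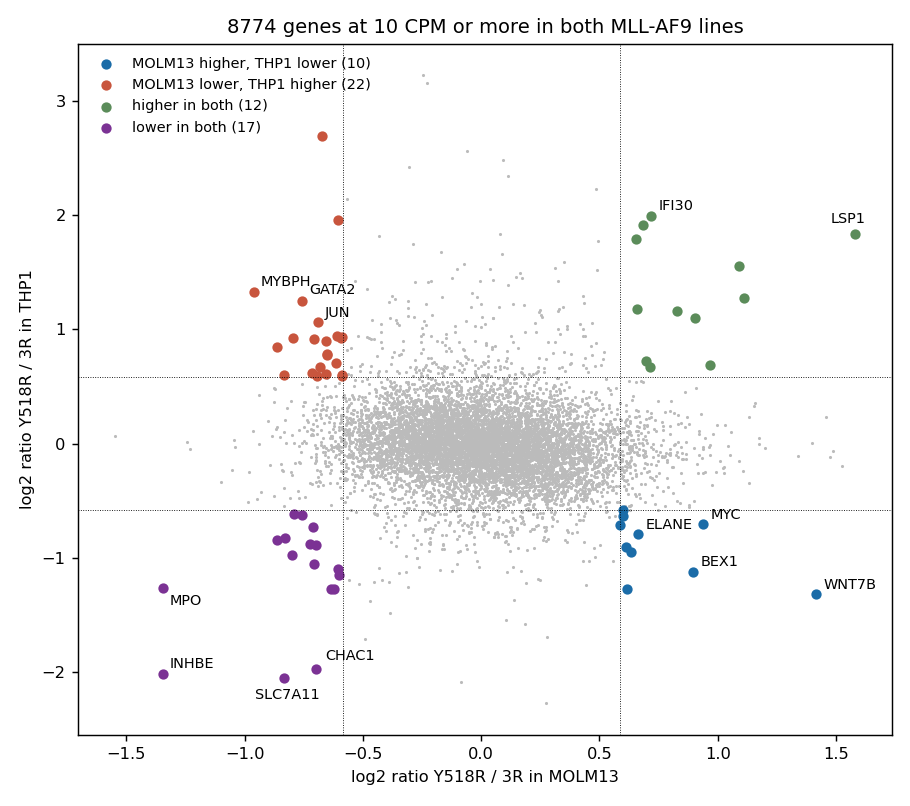
Log2 ratio of Y518R over 3R in MOLM13 (x axis) and THP1 (y axis) for 8774 genes at 10 CPM or more in both lines, with dotted lines at 1.5-fold and 4 coloured classes. Most genes lie in a cloud around 0, and the coloured corners hold 10, 22, 12 and 17 genes.

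MYC, the growth-promoting transcription factor, was among the genes higher in MOLM13 and lower in THP1. MYC was at 377 and 721 CPM in MOLM13, 188 and 115 in THP1, and 417 and 450.1 in K562. Its log2 ratio was 0.94 in MOLM13 (95% counting interval 0.90 to 0.98), -0.71 in THP1 (-0.77 to -0.65) and 0.11 in K562. WNT7B, a secreted WNT ligand, was at 10.3 and 27.5 CPM in MOLM13 and 24.9 and 9.97 in THP1, and had no count in K562. The Y518R library of MOLM13 and the 3R library of THP1 were thus the high ones for WNT7B. BEX1, a small signalling adaptor, was at 137 and 255 CPM in MOLM13 and 37.7 and 17.3 in THP1. ELANE, neutrophil elastase, was at 376 and 596 CPM in MOLM13 and 1684 and 969.9 in THP1, so that both THP1 libraries lay above both MOLM13 libraries. Under total-count scaling ELANE in MOLM13 had a log2 ratio of 0.58 and left the class. The 6 others were ARHGAP33, DYSFIP1, HAGHL, SNHG7, PPP1R14B and FAM203A, at log2 ratios of 0.59 to 0.63 in MOLM13 and -1.28 to -0.59 in THP1. DYSFIP1 was at 769 and 1179 CPM in MOLM13 and 185 and 76.3 in THP1.

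The 22 genes of the reverse orientation were led by MYBPH, PAPSS2, ETV5 and GATA2. MYBPH, a myosin-binding protein, was at 20.4 and 10.4 CPM in MOLM13 and 24.98 and 62.8 in THP1. GATA2, a transcription factor of blood stem and progenitor cells, was at 18.8 and 11.1 CPM in MOLM13, 15.0 and 35.6 in THP1, and 246 and 258 in K562. Its log2 ratio was -0.76 in MOLM13 (95% counting interval -0.995 to -0.53), 1.25 in THP1 (1.10 to 1.40) and 0.07 in K562. JUN, a subunit of the AP-1 factor, was at 63.5 and 39.3 CPM in MOLM13, 27.2 and 56.8 in THP1, and 23.2 and 28.9 in K562. MOLM13 therefore had more JUN RNA than THP1 with 3R and less with Y518R. ETV5, an ETS factor downstream of ERK signalling, was at 113 and 64.8 CPM in MOLM13, 14.8 and 28.1 in THP1, and 19.0 and 20.9 in K562. IL1RN, the antagonist of the interleukin-1 receptor, was at 51.1 and 31.3 CPM in MOLM13 and 26.2 and 49.4 in THP1, with no count in K562. PAPSS2, which makes the sulfate donor of sulfation, was at 13.4 and 7.34 CPM in MOLM13 and 6.46 and 11.7 in THP1. UST, a sulfotransferase, had the widest gap between lines of these 22, at 26.6 and 16.7 CPM in MOLM13 and 6.76 and 44.0 in THP1. The signal-transducing receptor chain IL6ST was at 18.6 and 11.8 CPM in MOLM13, 56.9 and 97.6 in THP1, and 40.2 and 38.4 in K562. FILIP1L, CTSK, OSBPL11, C6orf204, ESCO2, RDH10, FHL1, RGS2, PTPRO, SNTB2, NRIP1, CRYZ, HIVEP2 and USP46 made up the rest. Their log2 ratios ran from -0.83 to -0.59 in MOLM13 and from 0.59 to 1.96 in THP1. At the edge of the 1.5-fold rule, USP46 (-0.59 and 0.59) was just inside and ARHGEF3 (-0.65 and 0.58) just outside.

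**Figure D3:**
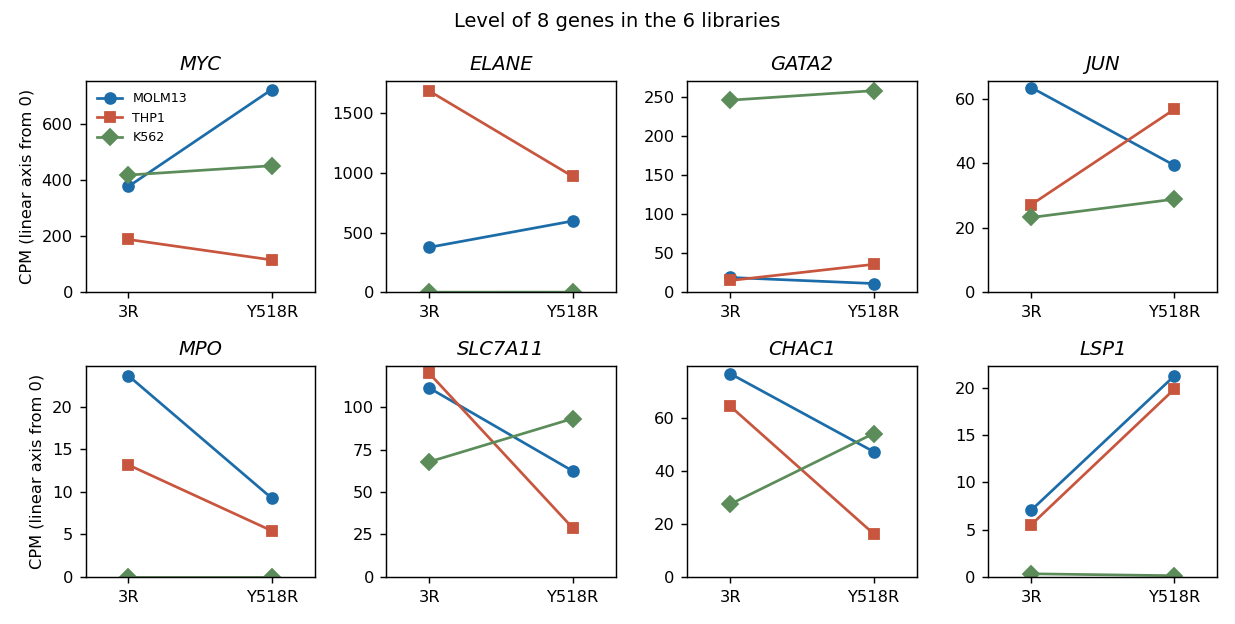
CPM of 8 genes (y axes, linear from 0) in the 3R and Y518R libraries of each line (x axis), 1 point per library, joined within a line. MYC and ELANE go up in MOLM13 and down in THP1, GATA2 and JUN the other way, MPO, SLC7A11 and CHAC1 down in both, and LSP1 up in both. MPO and LSP1 reached 10 CPM in MOLM13 and THP1 only in the library where they were high, so the filter fixed their direction.

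In K562 the ratios of the opposed genes were small. Of the 10 genes higher in MOLM13 and lower in THP1, 6 were at 10 CPM or more in K562 and all 6 had log2 ratios above 0, from 0.09 to 0.66. FAM203A alone was past 1.5-fold there. Over all genes at that level in K562, 56.9% were above 0. Of the 22 of the other orientation, 12 were at 10 CPM or more in K562, with 4 above 0, 8 below, and log2 ratios of -0.28 to 0.32. In all, 14 of these 18 genes had the sign of MOLM13 in K562, and 1 was past 1.5-fold. The share of all genes with the sign of MOLM13 in K562 was not taken, so this count is a description only. In K562 the counting interval of the log2 ratio included 0 for HAGHL, ETV5, OSBPL11, IL6ST, ESCO2, NRIP1 and USP46. Counting error alone thus leaves the sign of those genes in K562 open.

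Genes that MOLM13 and THP1 shared are described next. LSP1, an actin-binding protein of leukocytes, was at 7.06 and 21.3 CPM in MOLM13 and 5.52 and 19.9 in THP1, and at 0.328 and 0.127 in K562. IFI30, a lysosomal thiol reductase of antigen processing, was at 25.1 and 41.4 CPM in MOLM13, 25.8 and 103 in THP1, and 85.7 and 85.3 in K562. ARRDC3, an arrestin-like adaptor, was at 4.72 and 10.1 CPM in MOLM13, 11.4 and 33.6 in THP1, and 22.9 and 22.4 in K562. SLC43A2, C7orf41 and MFI2 were the others of the 6 with the largest shared ratios. VAT1L, LMNA, FGL2, GNG4, CMPK2 and MPEG1 completed the 12. In K562, 5 of the 12 were at 10 CPM or more and 1 of these, LMNA, was above 0.

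Lower in both lines were 17 genes, led by INHBE, an inhibin chain that is induced under stress of the endoplasmic reticulum. INHBE was at 93.1 and 36.6 CPM in MOLM13, 13.0 and 3.17 in THP1, and 11.7 and 20.7 in K562. MPO, the myeloperoxidase of granules, was at 23.7 and 9.27 CPM in MOLM13 and 13.2 and 5.43 in THP1, with no count in K562. SLC7A11, the cystine transporter, was at 111 and 62.4 CPM in MOLM13, 119.9 and 28.9 in THP1, and 67.8 and 93.2 in K562. PELI2, AGT and BASP1 completed the 6 with the largest shared ratios. In K562, 11 of the 17 were at 10 CPM or more, with 9 above 0 and 2 below. INHBE and CHAC1 were past 1.5-fold in K562, both higher. INHBE, SLC7A11 and CHAC1 thus stood on opposite sides in K562 and the MLL-AF9 lines.

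Genes of the ATF4 program, which cells raise when amino acids are short or the endoplasmic reticulum is stressed, separated the 3 lines. In THP1, 0 of 25 members at 10 CPM or more were above 0 and 21 were past 1.5-fold lower, with a median log2 ratio of -0.81. In MOLM13, 5 of 27 were above 0, 5 were past 1.5-fold lower, and the median was -0.11. In K562, 25 of 26 were above 0, 4 were past 1.5-fold higher, and the median was 0.32. The share of all genes above 0 was 48.9% in MOLM13, 48.2% in THP1 and 56.9% in K562, with medians of -0.01, -0.01 and 0.03. In the fit over the lines, 1 of 27 members had a change above 0, the median change was -0.20, and 0 were called.

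The element that the ATF4 program is known for was looked for before the starts of its members. The motif TGATGNAA, searched on both strands of the 250 bases before each start (RefSeq, GRCh38.p14), was in 4 of the 23 ATF4-list members matched by symbol (17.4%) and in 3.19% of all 27305 promoters. The other members matched hold no such letters in that window, which says nothing about the factor. A match is a description of the sequence and not a measured site. The windows shown are those of the 3 matching genes at 10 CPM or more in all lines, which differed in sign between THP1 and K562. ATF3, the other match, differed in sign too but was under 10 CPM in THP1 and is not shown. The capitals mark the motif, written 5′ to 3′ on the strand of the gene.
ASNS, chr7:97872439-97872506, minus strand: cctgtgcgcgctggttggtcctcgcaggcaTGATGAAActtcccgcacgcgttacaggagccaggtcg
CHAC1, chr15:40953232-40953299, plus strand: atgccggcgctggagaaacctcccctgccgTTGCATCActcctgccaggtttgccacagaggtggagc
AARS, chr16:70289656-70289723, minus strand: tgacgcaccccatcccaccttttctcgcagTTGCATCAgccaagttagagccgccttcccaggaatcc
In CHAC1 and AARS the motif lies on the opposite strand. ASNS makes asparagine, CHAC1 degrades glutathione, and AARS, listed by RefSeq as AARS1, charges alanine onto tRNA.

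CHAC1, with the motif starting 209 bases before its start, was at 76.5 and 47.2 CPM in MOLM13, 64.3 and 16.3 in THP1, and 27.4 and 54.0 in K562. The THP1 pair differed by -1.98 on the log2 scale and the K562 pair by 0.98. ASNS was at 363 and 325 CPM in MOLM13, 73.5 and 39.7 in THP1, and 258 and 299.8 in K562. AARS was at 1079.7 and 1072.7 CPM in MOLM13, 555 and 383 in THP1, and 483 and 547 in K562. ATF4 itself was at 1083 and 1071 CPM in MOLM13, 1161 and 571 in THP1, and 493.4 and 627 in K562. Its log2 ratios were -0.02, -1.02 and 0.35. The serine synthesis enzyme PSAT1, with NUPR1 and SLC7A11 the member of lowest p, was at 1020.1 and 693 CPM in MOLM13, 338 and 147 in THP1, and 127 and 141 in K562. NUPR1 differed from most members in K562, at a log2 ratio of -1.07 with levels of 1.27 and 0.571 CPM.

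**Figure D4:**
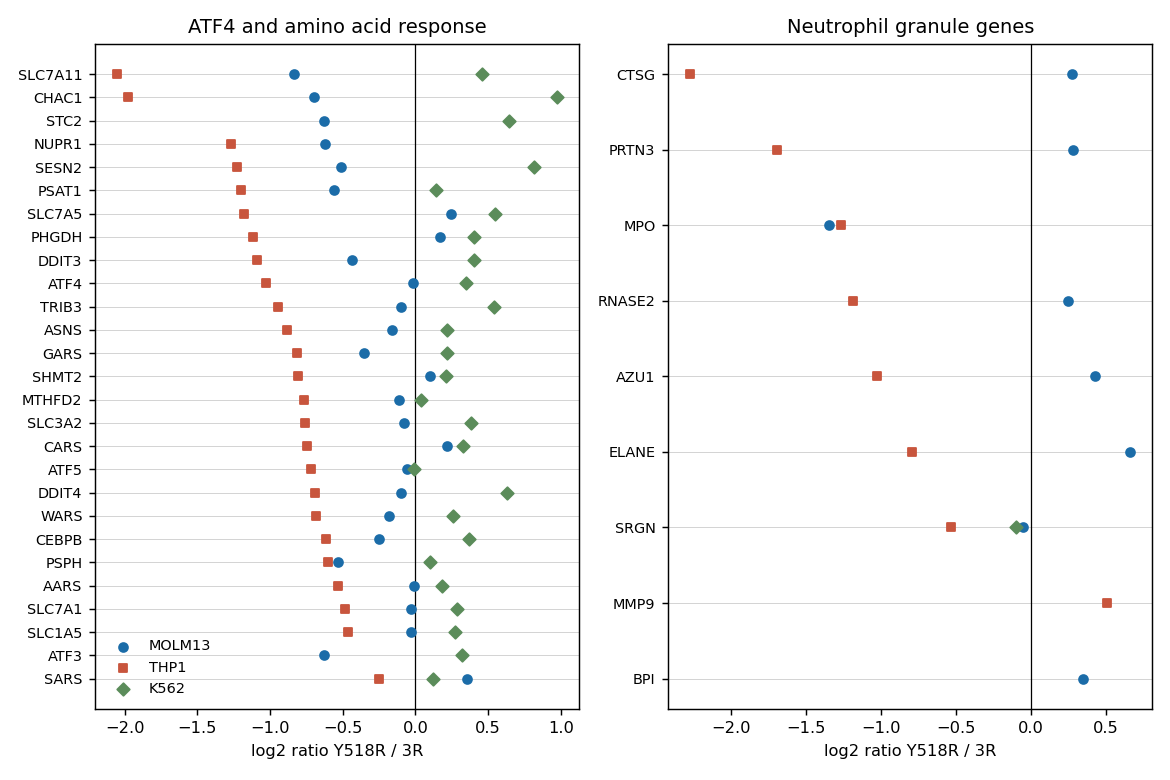
Log2 ratio of Y518R over 3R (x axes) of members of the ATF4 list and the neutrophil granule list (y axes), 1 point per line for members at 10 CPM or more there. THP1 points of the ATF4 list all lie below 0 and 25 of 26 K562 points above it. In the granule list most MOLM13 points are above 0 and most THP1 points below. BPI in MOLM13 and MPO in both lines passed the minimum only through the library where they were high, so the filter fixed their direction.

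Granule proteins of early neutrophils, on a list that holds ELANE, were mostly above 0 in MOLM13 and below 0 in THP1. In MOLM13, 6 of 8 members at 10 CPM or more were above 0, with a median of 0.28. In THP1, 1 of 8 was, with a median of -1.11 and 6 past 1.5-fold lower. ELANE, chosen above for its opposed ratios, is counted here and was the only member past 1.5-fold higher in MOLM13. Of all genes at 10 CPM or more, 48.9% were above 0 in MOLM13 and 48.2% in THP1, where 3.54% were past 1.5-fold lower. BPI passed this minimum in MOLM13 only through the Y518R library, and MPO in both lines only through the 3R library, which fixed their direction. Among members at 10 CPM or more in both libraries, 5 of 6 were above 0 in MOLM13. In THP1, 1 of 7 was, and 5 were past 1.5-fold lower. CTSG, the serine protease cathepsin G, was at 644 and 779 CPM in MOLM13 and 2884 and 596 in THP1. PRTN3, proteinase 3, was at 136 and 165 CPM in MOLM13 and 1323 and 409 in THP1. AZU1, azurocidin, was at 639 and 860.1 CPM in MOLM13 and 2395 and 1176 in THP1. RNASE2, an eosinophil ribonuclease, was at 209.7 and 249 CPM in MOLM13 and 621 and 272 in THP1. MPO was past 1.5-fold lower in both lines, and SRGN, the granule proteoglycan, was at log2 ratios of -0.05 in MOLM13 and -0.53 in THP1. CTSG, AZU1, PRTN3 and RNASE2 were under 2 CPM in K562, and SRGN was at 165 and 154 CPM there.

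Interferon-induced genes were higher with Y518R in THP1 and not in the other lines as a group. In THP1, 25 of 25 members at 10 CPM or more were above 0, 23 of them past 1.5-fold, with a median of 1.47. For 7 of the 25 (IFI27, IFI44L, IFIT1, IFIT2, OASL, RSAD2 and USP18) this direction was fixed by the filter, since only the Y518R library reached 10 CPM. The 18 at 10 CPM or more in both THP1 libraries were all above 0, 16 of them past 1.5-fold. Of all 9681 genes at 10 CPM or more in either THP1 library, 48.2% were above 0 and 5.1% past 1.5-fold higher. In MOLM13, 4 of 8 were above 0, with a median of -0.06. In K562, 3 of 5 were above 0 and the median was 0.01, which became -0.03 under total-count scaling. MX1, a GTPase that blocks viruses, was at 0.334 and 0.753 CPM in MOLM13, 83.8 and 356 in THP1, and 0.246 and 0.190 in K562. IFI6, a mitochondrial antiviral protein, was at 4.55 and 6.49 CPM in MOLM13, 90.9 and 266 in THP1, and 1.44 and 1.71 in K562. ISG15, a ubiquitin-like protein, was at 12.9 and 13.4 CPM in MOLM13, 37.0 and 99.9 in THP1, and 13.1 and 11.5 in K562. OAS3, which makes the activator of RNase L, was at 1.38 and 1.27 CPM in MOLM13, 84.7 and 309 in THP1, and 5.46 and 4.75 in K562. IFI27 and IFIT1 were in the same order in THP1, at 2.50 and 21.1 CPM and at 8.18 and 32.7 CPM. The fit over the lines gave 26 of 27 members above 0, beside 51.5% of all tested genes, and a median of 0.61, with 0 called.

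The interferon element GAAANNGAA was in 14 of 20 promoters of these genes matched by symbol (70%), and in 7.06% of all 27305 promoters, on either strand of 250 bases. The same windows before the starts of 3 members are shown for the letters that these THP1 genes share, with the element in capitals. Capitals mark only the match at the centre of each window. All 3 genes hold further matches in the 250 bases, and in ISG15 these overlap the one marked.
IFI6, chr1:27672310-27672378, minus strand: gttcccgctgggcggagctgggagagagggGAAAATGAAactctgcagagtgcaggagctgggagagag
ISG15, chr1:1013360-1013428, plus strand: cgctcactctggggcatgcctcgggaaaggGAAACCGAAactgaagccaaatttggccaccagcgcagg
OAS3, chr12:112938301-112938369, plus strand: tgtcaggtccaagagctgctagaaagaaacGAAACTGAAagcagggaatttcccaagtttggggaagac

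Genes of ribosome biogenesis were higher in MOLM13. Of 29 ribosome biogenesis genes and MYC targets, 28 were above 0 in MOLM13 with a median of 0.37, and 7 were past 1.5-fold higher. In THP1, 8 of 28 were above 0 with a median of -0.11, and in K562, 17 of 28 with a median of 0.04. Of all genes, 48.9% were above 0 in MOLM13, 48.2% in THP1 and 56.9% in K562, and 3.83% were past 1.5-fold higher in MOLM13. RRP9, a factor of small-subunit processing, was at 20.5 and 59.1 CPM in MOLM13, 37.3 and 32.5 in THP1, and 63.8 and 67.5 in K562. ODC1, the first enzyme of polyamine synthesis, was at 72.7 and 162 CPM in MOLM13, 218 and 274 in THP1, and 647 and 602 in K562. SRM, spermidine synthase, was at 101 and 176 CPM in MOLM13, 145 and 137 in THP1, and 218 and 261 in K562. ODC1 was therefore higher in THP1 too, unlike the median of its list. ODC1, SRM and RRP12 had the lowest p of the list, and 0 of 29 were called.

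G2/M genes had the other order. In MOLM13, 1 of 20 was above 0 with a median of -0.34, and in THP1, 15 of 20 with a median of 0.25. In K562, 11 of 19 were, with a median of 0.02, which became -0.01 under total-count scaling. The shares of all genes above 0 were 48.9%, 48.2% and 56.9% in the same order. KIF11, a spindle motor, was at 92.0 and 54.4 CPM in MOLM13, 49.7 and 71.3 in THP1, and 125 and 121 in K562. CENPF, a kinetochore protein, was at 213 and 149 CPM in MOLM13, 403 and 646 in THP1, and 390 and 403 in K562. AURKB, BIRC5, UBE2C, CCNB2 and BUB1B were the exceptions in THP1, at log2 ratios of -0.30 to -0.02.

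S phase genes were above 0 in all lines by their median, at 0.27 in MOLM13, 0.14 in THP1 and 0.05 in K562. The medians of all genes were -0.01, -0.01 and 0.03 in the same order, so the K562 value was near that of all genes. Of 30 members, 28 had a fitted change above 0, with a median of 0.16, and 18 were above 0 in all 3 lines. Over all tested genes these shares were 51.5% and 11.4%. None was called. MCM5, a subunit of the replicative helicase, was at 73.6 and 115 CPM in MOLM13, 226 and 265 in THP1, and 170 and 204 in K562. Its fitted log2 change was 0.38 ± 0.13 (SE, n = 3 lines; edgeR adjusted p = 0.999). RRM2, a subunit of ribonucleotide reductase, was at 45.1 and 65.3 CPM in MOLM13, 144 and 201 in THP1, and 293 and 302 in K562. ORC1, of the origin recognition complex, was at 17.2 and 25.2 CPM in MOLM13, 70.3 and 94.7 in THP1, and 161 and 179 in K562. The 5 members at an unadjusted p under 0.05, all higher, were MCM5, ORC1, RRM2, POLA1 and MCM2.

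**Figure D5:**
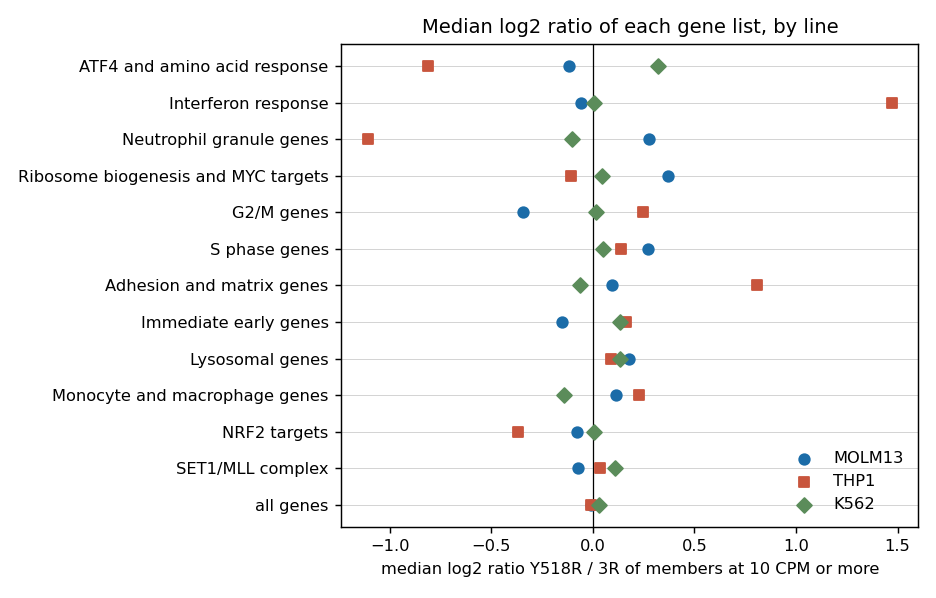
Median log2 ratio of Y518R over 3R (x axis) of 12 gene lists and of all genes (y axis) in each line, over members at 10 CPM or more. THP1 stands apart for the interferon, ATF4, granule and adhesion lists, and MOLM13 for ribosome biogenesis. The adhesion list was drawn up with higher values in THP1 already known, so its place is a description only. Some interferon, granule and adhesion members reached 10 CPM in a line only in the library where they were high, so the filter fixed their direction. The S phase list is above 0 in all 3 lines, and in K562 it lies near the median of all genes.

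The adhesion and matrix list was drawn up with higher values in THP1 already known, so its count and median there are a description only. In THP1, 16 of 19 members were above 0, 12 past 1.5-fold, with a median of 0.81, against medians of 0.09 over 14 members in MOLM13 and -0.06 over 6 in K562. CD9, ICAM1 and NRP2 passed the minimum in THP1 only through the Y518R library, which fixed their direction. Of the 16 at 10 CPM or more in both THP1 libraries, 13 were above 0 and 9 past 1.5-fold. VCAN, the proteoglycan versican, was at 25.7 and 327 CPM in THP1 and at most 1.04 CPM in the other lines. TIMP3, an inhibitor of matrix proteases, was at 359 and 1386 CPM in THP1, 0.418 and 0.0941 in MOLM13, and 2.14 and 2.16 in K562. Of the immediate early genes, 5 of 19 were past 1.5-fold lower in MOLM13 and 3 of 10 past 1.5-fold higher in THP1. Over all genes these shares were 3.39% and 5.1%. JUN and ETV5, chosen above as opposed genes, are in both counts. SPRY4 passed the minimum in MOLM13 only through the 3R library, and of the other 18, 4 were past 1.5-fold lower. In K562, 1 of 13 was past 1.5-fold lower, SPRY2 at a log2 ratio of -0.60, which passed the minimum only through the 3R library. EGR1, a zinc finger factor induced by growth signals, was at 33.99 and 18.9 CPM in MOLM13, 3.59 and 4.41 in THP1, and 64.8 and 51.8 in K562. Lysosomal genes were less divided: 17 of 22 had a fitted change above 0, with a median of 0.17, and 9 were above 0 in all 3 lines. The shares over all tested genes were 51.5% and 11.4%. CTSB, the protease cathepsin B, was at 258 and 311 CPM in MOLM13, 184 and 291 in THP1, and 151 and 165 in K562. The monocyte receptor CD14 was at 1.503 and 1.93 CPM in MOLM13, 4.13 and 16.6 in THP1, and 0.0821 and 0.127 in K562. The erythroid list had a median log2 ratio of 0.16 in K562 with 18 of 25 members above 0, beside 56.9% of all genes there. EPB42 and GYPB passed the minimum there only through the 3R library, and of the other 23, 18 were above 0.

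The genes of the complex that the peptides concern are given here with the targets of MLL fusions. Of 21 SET1/MLL complex genes, 11 had a fitted change above 0, the median was 0.01, and none was past 1.5-fold in any line at 10 CPM or more. DPY30 was at 35.4 and 36.4 CPM in MOLM13, 32.1 and 25.4 in THP1, and 51.1 and 43.0 in K562. These are RNA levels and do not show whether the peptide reached the protein. ASH2L was at 121 and 151 CPM in MOLM13, 193 and 181 in THP1, and 298.5 and 304 in K562. MEIS1, a homeobox partner of HOXA9, was at 53.2 and 49.4 CPM in MOLM13, 0.0603 and 0.186 in THP1, and 5.87 and 5.42 in K562. Of 11 HOXA genes, 5 had a fitted change above 0, with a median of -0.02. At 10 CPM or more, 1 of 4 was above 0 in THP1, with a median of -0.15. HOXA9 was among these 4 only through its 3R library, and of the other 3, 1 was above 0. Of 14 other tested MLL-fusion targets, 4 were above 0, with a median of -0.11. At 10 CPM or more, 3 of 11 were above 0 in THP1 with a median of -0.23, and 4 of 13 in MOLM13 with a median of -0.11. RUNX2, a Runt transcription factor, and FLT3, a receptor tyrosine kinase of progenitors, were past 1.5-fold lower in THP1. RUNX2 was at 26.1 and 20.002 CPM in MOLM13 and 81.8 and 45.0 in THP1, and FLT3 at 506 and 553 in MOLM13 and 102 and 61.6 in THP1.

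For 8 genes, the log2 ratios of the 3 lines were averaged and tested by a 2-sided exact permutation of their signs, which with 3 pairs can give no p below 0.25. DPY30 had a mean of -0.18 ± 0.20 (SD, n = 3; exact p = 0.5) and MYC 0.11 ± 0.82 (SD, n = 3; exact p = 0.75). SPI1, the myeloid factor PU.1, had -0.06 ± 0.25 (SD, n = 3; exact p = 1). HOXA9, with no count in K562, was at log2 ratios of 0.50 in MOLM13 and -0.37 in THP1. The means of ASH2L and LYZ were 0.09 and -0.20, and adjusted p was 1 for all 8 genes. No mean is given for GATA1 or MEIS1, since GATA1 had at most 7 counts in the MOLM13 and THP1 libraries and MEIS1 2 and 6 counts in THP1. In K562 the log2 ratio of GATA1 was 0.25. The design cannot pass 0.05.

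The peptide effect in the 3 lines was also tested against that in the 5 lymphoid lines, as the difference of the 2 log2 changes in a fit of all 16 libraries. Of 16586 genes, 3 were called (0.0181%), all with a higher change in the 3 lines. LSP1 differed by 1.68 ± 0.22 (SE, n = 3 and 5 lines; edgeR adjusted p = 0.0111), from log2 changes of 1.63 and -0.05. NRP2, a semaphorin and VEGF co-receptor, differed by 3.96 ± 0.58 (SE; edgeR adjusted p = 0.0199), from 4.10 and 0.15. MX1 differed by 1.78 ± 0.28 (SE; edgeR adjusted p = 0.0387), from 1.89 and 0.11. In this fit's scaling NRP2 was at 0.560 and 16.5 CPM in THP1 and at most 1.13 CPM in MOLM13 and K562. LSP1 and MX1 were not higher in all 3 lines. In the scaling of the 6 libraries LSP1 was at 0.328 and 0.127 CPM in K562. MX1 was at 0.334 and 0.753 CPM in MOLM13 and 0.246 and 0.190 in K562, against 83.8 and 356 in THP1. Without the THP1 pair no gene was called, and the differences became 1.48 for LSP1 (adjusted p = 0.0657), 1.48 for NRP2 (adjusted p = 0.745) and 0.50 for MX1 (adjusted p = 0.902). None was called either without the RS4-11, the JURKAT or the P493-6 pair, or with DESeq2 in place of edgeR. Limma-voom called 2 genes, MX1 and IFI27, and neither LSP1 nor NRP2. Without the MOLM13 pair the calls were 46 higher and 7 lower, without K562 15 and 8, without KOPN8 2 and 1, and without RAJI 4 and 0. RASSF6, PNMA2, COL24A1, GLDC, RGMB, BASP1 and PELI2 were next by p and were not called.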

How the data were processed

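The authors deposited counts, whole numbers of reads per gene, for 23230 gene symbols and 5 entries that name no gene; those 5 were left out. Per the submitters' processing notes the tools included TopHat2 2.1.1, CASAVA 1.8.4, DESeq, DESeq2 3.0 and HTSeq 0.6.1, and the builds were GRCh38 and hg19, with no step given. No source used here states the strand setting, so reads of overlapping, antisense and near-identical genes cannot be told apart.

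Counts of the 6 libraries were scaled by TMM, filtered by filterByExpr at a minimum count of 10, and tested with edgeR 4.0.16 (R 4.3.3), with line as block and Benjamini-Hochberg adjustment at 0.05. The SE was taken from the log2 change and the F statistic (change over the root of F). Within a line, log2 ratios of CPM had a prior count of 2. DESeq2 1.42.0 and limma 3.58.1 were alternatives. The fits were tested on simulated data. Libraries of a line are the pair, and within pairs the deviations from each peptide's mean had correlations between 0.94 and 0.972. The libraries of a pair differed beyond sampling noise, with a chi-square of 11.8 to 65.5 per degree of freedom. The labels do not mention repeated cultures, so p-values measure the spread between lines, part of which may be technical.

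The members and gene lists (26 lists, 496 entries) were chosen with earlier results of these data known. Named genes were the 10 of lowest p in each direction shared by the 3 lines at a mean of 10 CPM or more, the 12 opposed genes per orientation and 6 shared genes per direction with the largest smaller ratio in MOLM13 and THP1, the 3 list members of lowest p with those past 1.5-fold in both lines, the 5 of lowest p in each direction of the difference, and 8 set genes with line markers. Other list members, the other shared genes and DESeq2's calls were named after their values were seen.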

Additional observations from a re-analysis of the deposited data

Results flagged for a closer look

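The change with Y518R differed between the 3 lines and the 5 lymphoid lines, by a test of that difference, at LSP1 (1.68 on the log2 scale), NRP2 (3.96) and MX1 (1.78). None was called with DESeq2, or without the THP1, RS4-11, JURKAT or P493-6 pair. Limma-voom called MX1 but neither LSP1 nor NRP2. Without THP1 the difference was 1.48 for LSP1, 1.48 for NRP2 and 0.50 for MX1. MOLM13 and THP1, which share a fusion, stood past 1.5-fold in opposite directions at 10 genes in the orientation of MYC and at 22 genes in that of GATA2. With 1 library per peptide in each line, that difference between the lines was not tested.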

How the results depend on the processing

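The count of 0 calls in each direction over the 3 lines was the same under RLE scaling, limma-voom and the fit with no replicate block (0 and 0). It became 8 higher and 1 lower with no filter on low counts, 4 higher with DESeq2, 13 and 2 with all 16 libraries, and 3 to 20 higher and 1 to 2 lower when each line's pair was left out in turn. The count of 3 for the difference from the lymphoid lines became 31 higher and 4 lower with no filter, 0 with DESeq2, 0 with no replicate block, and 0 to 46 higher and 0 to 8 lower when each pair was left out. The opposed genes numbered 1 and 0 past 2-fold, 37 and 108 at a minimum of 1 CPM, and 3 and 36 under total-count scaling. Genes shared by MOLM13 and THP1 numbered 3 higher and 2 lower past 2-fold, and 63 and 97 at 1 CPM. The cause of these moves was not tested.

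Leaving out each line in turn moved list medians to between -0.0111 and 0.117 for the HOXA cluster, -0.122 and -0.0133 for other MLL-fusion targets, -0.0593 and 0.0850 for myeloid transcription factors, -0.0199 and 0.341 for monocyte genes, -0.0559 and 0.129 for erythroid genes, 0.13 and 0.53 for megakaryocyte genes, 0.27 and 0.58 for B cell markers, -0.0204 and 0.0784 for cholesterol synthesis, and 0.11 and 0.19 for lysosomal genes. The megakaryocyte median was -0.0037 with DESeq2 and 0.0028 with no replicate block, and the lysosomal median was 0.0900 with no replicate block.

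Mean log2 ratios changed sign within these ranges when a line was left out: ASH2L -0.0335 to 0.17, MYC -0.30 to 0.52, HOXA9 -0.19 to 0.25, MEIS1 -0.11 to 0.43 and SPI1 -0.15 to 0.0816. Fitted changes did so for FLT3 (-0.82 to 0.0371), CTSG (-2.11 to 0.0381), CD247 (-0.50 to 0.80), CD3D (-0.48 to 0.14), DUSP6 (-0.0429 to 0.89), HSPA1B (-0.0522 to 0.42) and BCL2L11 (-0.44 to 0.0536). With no replicate block FLT3 was at 0.0260 and HSPA1B at -0.12. Depth limits genes under 1 CPM, many of them in K562.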

Other observations

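Values of other lists follow, with no test of a difference between lines. Of 12 NRF2 targets, genes of the antioxidant response, 2 were above 0 in THP1 with a median log2 ratio of -0.37, 5 in MOLM13 with a median of -0.08, and 7 in K562 with a median of 0.01, which became -0.03 under total-count scaling. GCLM, a subunit of the enzyme that starts glutathione synthesis, was at 37.9 and 23.1 CPM (3R, then Y518R) in MOLM13, 93.7 and 73.2 in THP1, and 81.4 and 81.2 in K562. Monocyte and macrophage genes were above 0 at 14 of 20 members in THP1, at 11 of 16 in MOLM13 and at 1 of 4 in K562. CD14, CD86 and CLEC7A passed the filter in THP1 only through the Y518R library, which fixed their direction; of the other 17, 11 were above 0 and 4 past 1.5-fold higher. ITGAM, the integrin chain CD11b, was at 10.6 and 53.8 CPM in THP1 and 36.4 and 39.3 in MOLM13. CD86, a costimulatory ligand, was at 1.90 and 17.5 CPM in THP1 and 48.0 and 40.9 in MOLM13.

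Of the BCL2 family, 4 of 13 members were above 0 in THP1 with a median of -0.22, 7 of 13 in MOLM13 and 8 of 10 in K562. At 10 CPM or more in both libraries of a line, 4 of 12 were above 0 in THP1, 7 of 13 in MOLM13 and 7 of 9 in K562. Of p53 targets, 8 of 13 were above 0 in THP1, 8 of 17 in MOLM13 and 7 of 11 in K562, beside 48.2%, 48.9% and 56.9% of all genes. With both libraries of the line at 10 CPM or more, the p53 targets above 0 were 6 of 10, 8 of 16 and 7 of 11 in the same order. GDF15, a stress-induced cytokine, was at 60.6 and 68.2 CPM in MOLM13, 0.422 and 0.932 in THP1, and 61.3 and 96.4 in K562. Cholesterol synthesis genes had medians of 0.01, -0.01 and -0.07 in MOLM13, THP1 and K562, of which the first became -0.08 and the second 0.03 under total-count scaling. Heat shock genes had medians of -0.06, 0.03 and -0.08 in the same order. No member of these lists was called over the 3 lines by edgeR.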
